A study of Mus musculus with 12 samples.

Results

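The aminoacyl-tRNA synthetases studied here are 36 genes, 20 for cytosolic and 16 for mitochondrial enzymes, taken by name from 49216 mouse genes with read counts. The series measured RNA by sequencing in male germ cells of C57Bl mice whose germ cells express tdTomato, sorted by flow cytometry and then cultured. Pachytene and diplotene cells (PD) were kept 48 hours with oxamate at 24 mM, which inhibits lactate dehydrogenase, or untreated. Leptotene and zygotene cells (LZ) were kept 6 days with 0.3 mM octyl-L2HG, a cell-permeable form of L-2-hydroxyglutarate (L2HG), or untreated. Each of the 4 groups had 3 libraries, called A, B and C here by a code that the groups share. These codes match no sample title, so reading a code as 1 experiment that gave a library to every group is an inference. The series text says that oxamate lowers 2-hydroxyglutarate in PD cells to what LZ cells have. Which promoter drives tdTomato is not given in the sources used here. Stage is tied to culture time, since no LZ group was kept 48 hours and no PD group 6 days, so stage and culture time cannot be told apart.

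Each synthetase joins an amino acid to its matching tRNA, the step that sets which amino acid a codon stands for. Cytosolic enzymes serve the bulk of protein synthesis, and a separate nuclear-encoded set charges the tRNAs of the mitochondrion. Several cytosolic enzymes sit together in the multisynthetase complex, held by scaffold proteins such as Aimp1. In mammalian cells short of amino acids, the kinase Eif2ak4 (GCN2) senses uncharged tRNA and the transcription factor Atf4 then raises many cytosolic synthetase genes with amino acid transporters and synthesis enzymes. Lysyl- and glycyl-tRNA synthetase (Kars, Gars) serve both compartments from a single gene, and mitochondrial glutaminyl-tRNA is made by transamidation, so these have no mitochondrial partner in the list.

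Sorted stages showed their labelled markers. Markers of pachytene and diplotene cells made up 1.48 to 1.51% of counts in PD untreated and 0.0841 to 0.133% in LZ untreated libraries. Those of leptotene and zygotene cells made up 0.0156 to 0.0242% in PD untreated and 0.239 to 0.327% in LZ untreated libraries. Of these 11 leptotene and zygotene markers 9 were lower in PD untreated cells, while Mei1 and Spo11 were higher there. Total counts were 19107780 to 21115131 with oxamate and 15202579 to 21275486 in untreated PD cells, 11271410 to 18432143 with octyl-L2HG and 10532504 to 15903788 in untreated LZ cells. Libraries of a group correlated at 0.9861 to 0.9936 on the log2 scale, and 0 of 12 were copies of another. The treated C libraries of both stages stand apart in counts of Lars2 and of a ribosomal RNA repeat transcript, described with Lars2 further on. Levels are normalized counts, that is, read counts adjusted for library size by the trimmed mean of M values. Fold changes were taken after adding 1 and forming log2, which understates those of low genes, and a call is a Benjamini-Hochberg adjusted p under 0.05 over all tested genes in limma. In these bulk samples fewer cells of a type and less RNA per cell cannot be told apart.

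Oxamate in PD cells was followed by higher RNA of 7 of the 36 synthetases, 5 of 20 cytosolic and 2 of 16 mitochondrial (limma). Lower RNA was called for 0. At an unadjusted p under 0.05 there were 14 positive and 0 negative changes among the 36, and 3211 genes of the 15233 tested. The 7 called higher are 19.4% of the synthetases. Of the 15233 genes tested 6.13% were called higher and 1.65% lower (934 and 252 genes, or 753 and 385 with total-count scaling). The cytosolic genes were Iars, Mars1, Yars, Lars and Tars, 3 of the 8 enzymes of the multisynthetase complex and 2 of the 12 free ones. The mitochondrial genes were Yars2 and Cars2. The median log2 fold change was 0.26 over the cytosolic and 0.15 over the mitochondrial genes, and 0.03 over all genes tested. Some marker sums also differed without overlap between PD oxamate and PD untreated libraries. Endothelial markers made up 0.00151 to 0.00166% of counts with oxamate and 0.00247 to 0.00252% without, and Leydig markers 0.000175 to 0.000261% with oxamate and 0.000297 to 0.000385% without. Peritubular and stromal markers made up 0.000455 to 0.00053% with oxamate and 0.000568 to 0.00071% without, and pachytene and diplotene markers 1.35 to 1.46% with oxamate and 1.48 to 1.51% without. Sertoli markers overlapped, at 0.000327 to 0.000382% with oxamate and 0.000252 to 0.000355% without. Single markers did not all follow these sums. Of the 11 pachytene and diplotene markers 8 had a positive and 3 a negative oxamate change, and 0 were called. Among the falling ones, Hspa2 averaged 41680 normalized counts with oxamate and 46950 without, and Adam3 27380 and 29580. Vwf averaged 122.4 with oxamate and 226.6 without, and Star 36.47 and 55.39, while endothelial Cdh5 stood at 25.26 and 23.23. The part of the marked cell types in the oxamate differences was not tested.

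Iars, the isoleucine enzyme of the multisynthetase complex (chr13:49682100-49734267, GRCm38), had 6816, 6672 and 5413 normalized counts in PD oxamate libraries A, B and C, against 4050, 4439 and 4205 in PD untreated libraries. Each oxamate library lay above every untreated PD library, a 1.48-fold difference (log2 fold change 0.57, SE 0.096, adjusted p = 0.00322). Mars1, the methionine enzyme of the complex (chr10:127296221-127311786), stood at 7010, 6992 and 5372 with oxamate, against 4295, 4416 and 3575 without (log2 fold change 0.65, SE 0.12, adjusted p = 0.00463). The groups did not overlap, and Mars1 was called in 16 of 16 alternative ways of processing or subsetting the libraries. Its annotated span shares 68 bases with Ddit3 on the other strand, and Ddit3, a stress-response transcription factor, had 1150 ± 55.6 with oxamate and 1367 ± 142 without (SD, n = 3 each; log2 fold change -0.24, SE 0.13, adjusted p = 0.315). Lars, the leucine enzyme of the complex, had 2508, 2364 and 2206 with oxamate, against 1944, 1709 and 1648 in untreated PD cells (log2 fold change 0.42, SE 0.10, adjusted p = 0.0254). All oxamate values were above the untreated ones.

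Yars, which charges tyrosine (chr4:129189760-129219607), had 1347, 1230 and 1034 with oxamate, against 872, 845 and 859.6 without (log2 fold change 0.48, SE 0.11, adjusted p = 0.0172), and untreated libraries lay close together. Tars, for threonine (chr15:11382301-11399665), had 537, 395 and 284 with oxamate, against 275, 228 and 204 without, a 1.68-fold difference (log2 fold change 0.74, SE 0.19, adjusted p = 0.0291). Its oxamate library A was well above library C, which came close to the highest untreated library. Yars2, the mitochondrial tyrosine enzyme (chr16:16302965-16309640), had 153, 187 and 167 with oxamate and 111, 107 and 86.5 without (log2 fold change 0.73, SE 0.12, adjusted p = 0.00344). Cars2, the mitochondrial cysteine enzyme (chr8:11513977-11550783), had 93.3, 82.8 and 67.9 with oxamate and 52.4, 49.2 and 43.2 without (log2 fold change 0.73, SE 0.16, adjusted p = 0.0151). Neither gene's groups overlapped.

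**Figure D1:**
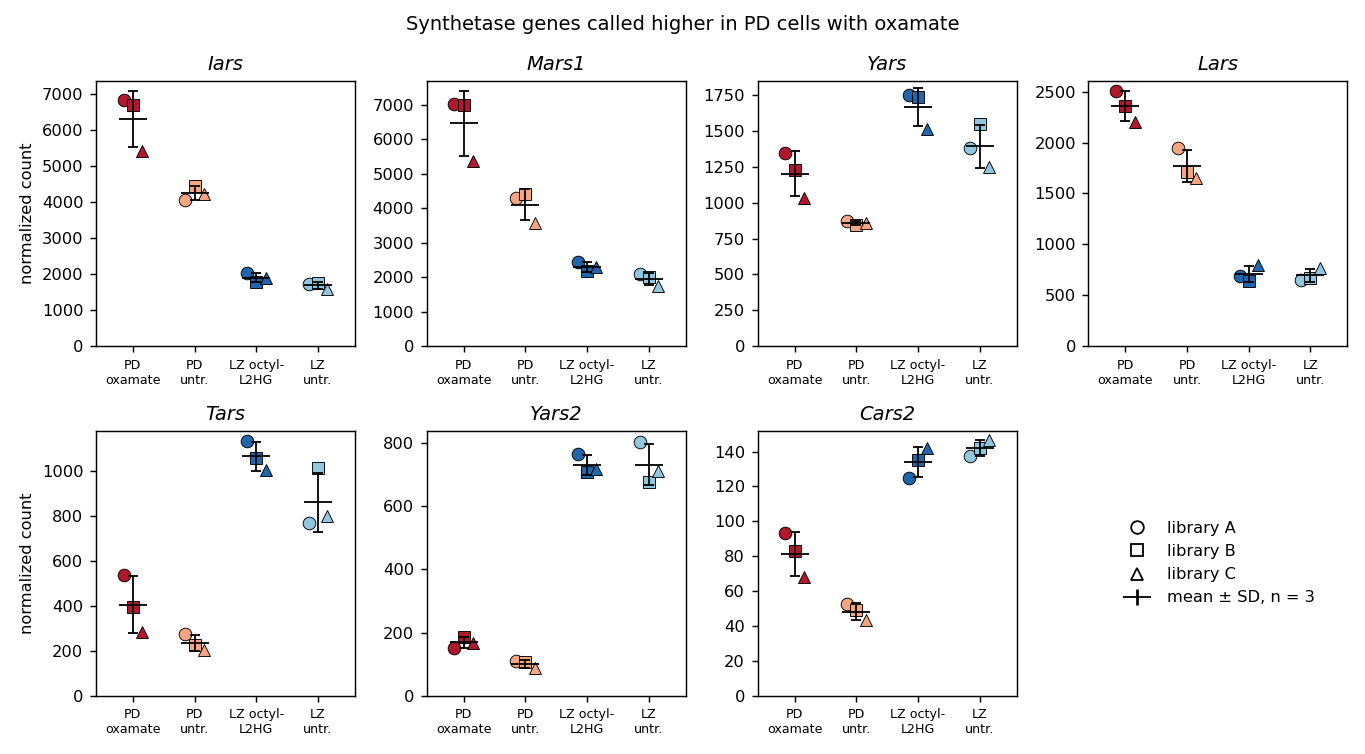
Normalized counts per library (y axis, from 0) of the 7 synthetase genes called higher with oxamate, in the 4 groups (x axis), with library A as circle, B as square and C as triangle, and the mean ± SD of 3 libraries. In every panel all oxamate libraries lie above all untreated PD libraries, and for Tars, Yars2 and Cars2 every PD library lies below every LZ library.

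All 5 cytosolic genes called belong to the 13 synthetases often listed as Atf4 targets, while 0 of the 7 other cytosolic genes was called, a difference in counts that was not tested. Median log2 fold changes were 0.40 for the 13 and 0.10 for the 7. Not every listed target was called: Aars, the alanine enzyme, had 12724, 12237 and 10257 with oxamate and 10671, 11764 and 10843 without (log2 fold change 0.077, SE 0.099, adjusted p = 0.769), and Vars, for valine, had a log2 fold change of -0.11 with a 95% interval of -0.43 to 0.20. Of the members not called, Nars (log2 fold change 0.50, SE 0.17, adjusted p = 0.103), Gars (log2 fold change 0.37, SE 0.12, adjusted p = 0.0922) and Sars (log2 fold change 0.40, SE 0.17, adjusted p = 0.201) had the largest positive values among cytosolic genes. By catalytic class, 6 of 19 class I and 1 of 18 class II synthetases were called higher, the bifunctional Eprs counting in both.

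The number called depended on single libraries and on the scaling. With the shared code as a block over all 12 libraries 8 cytosolic genes were called. Gars (adjusted p = 0.0223), Farsa (0.049) and Farsb (0.048) were added. That block gives each code a single effect common to PD and LZ libraries, so it is not a pairing of the PD libraries alone. Farsa and Farsb encode the subunits of phenylalanyl-tRNA synthetase. Leaving out 1 PD library at a time gave 2 to 7 cytosolic and 1 to 2 mitochondrial calls. Without oxamate library C, Nars (log2 fold change 0.78, adjusted p = 0.00186) and Cars (0.52, adjusted p = 0.0155) were called too. Without oxamate library A, the calls of Lars, Tars, Yars and Cars2 were lost, with log2 fold changes of 0.35, 0.49, 0.36 and 0.60. The same 4 calls were lost without oxamate library B or untreated library C, and Lars, Tars and Yars without untreated library B. Without all C libraries, an alternative chosen after seeing the data, 1 cytosolic (Mars1) and 0 mitochondrial genes were called, where 39 genes in all were.

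Sequences around the starts of these genes are shown because many Atf4 targets carry a C/EBP-ATF response element near their start. Windows of 300 bases, from 250 before to 50 after a gene's start, were read from RefSeq (GRCm38.p6), which held one for 27 of the 36 genes. The motif TGATGNAA, on either strand, occurred in 3.97% of all 32851 windows and in the windows of 5 of the 27 synthetases. It was found for 3 of the 6 oxamate-higher genes with a window, Iars, Tars and Yars, and for 2 of the 21 others, Aars and Gars. Sites of these genes are printed 5' to 3' on the gene's strand, with the match in capitals and positions counted from the RefSeq start, whose first base is 1. A match is a run of letters and does not show that a factor binds there.
Iars, chr13:49682126-49682155, positions 8 to 15: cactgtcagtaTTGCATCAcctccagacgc
Tars, chr15:11399655-11399684, minus strand, positions -15 to -8: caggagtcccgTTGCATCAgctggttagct
Yars, chr4:129189895-129189924, positions 4 to 11: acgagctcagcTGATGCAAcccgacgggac
Gars, chr6:55037960-55037989, positions -30 to -23: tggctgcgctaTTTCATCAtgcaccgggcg
Aars, chr8:111033840-111033869, positions 10 to 17: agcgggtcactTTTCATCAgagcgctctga
A further Aars match, TTGCATCA at positions -112 to -105, is not printed above and has the same letters as those of Iars and Tars. Aars and Gars hold the motif and were not called with oxamate, Gars being called only with the code block or with voom weights.

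Octyl-L2HG in LZ cells gave 0 of 36 calls in either direction, where 0.276% of 13039 tested genes were called higher and 0.0307% lower (36 and 4 genes, or 22 and 8 with total-count scaling). At an unadjusted p under 0.05 there were 4 synthetases (Sars, Wars, Yars and Aars2, all positive) and 1694 genes in all. The median log2 fold change was 0.12 for the cytosolic, 0.09 for the mitochondrial and 0.06 for all genes. Sars, the serine enzyme, came closest, with 285, 288 and 269.8 normalized counts in octyl-L2HG libraries A, B and C, against 160.0, 265 and 163 in LZ untreated libraries (log2 fold change 0.56, SE 0.17, adjusted p = 0.196). Untreated library B lay near the treated values and apart from the other untreated ones, and without it Sars was called (log2 fold change 0.80, adjusted p = 0.0236). Aars2, for mitochondrial alanine (chr17:45506841-45520843), had 87.8, 93.0 and 79.0 with octyl-L2HG and 60.9, 71.6 and 76.8 without (log2 fold change 0.31, SE 0.12, adjusted p = 0.273). Of the 7 genes called with oxamate, 6 had a positive value here, as did 29 of all 36 synthetases. Among the 7, Tars had a log2 fold change of 0.32 with a 95% interval of -0.092 to 0.73.

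Whether the treatments differed was tested as oxamate's change in PD cells minus octyl-L2HG's change in LZ cells. Again 0 of 36 synthetases were called, where 0.693% of 11261 genes were called higher and 0.515% lower. An unadjusted p under 0.05 was found for 7 of the 36, 5 of them positive, and for 1903 of the 11261 genes. Yars2 came closest, at log2 fold change 0.73, SE 0.18, adjusted p = 0.0589. It passed with the shared code as a block (adjusted p = 0.0463), with total-count scaling (0.0316) and with median-of-ratios scaling (0.0374). Cars2 followed with log2 fold change 0.82, SE 0.23, adjusted p = 0.0944, and Aars2 had the lowest p among negative values (log2 fold change -0.52, SE 0.17, adjusted p = 0.132). For the 5 cytosolic genes called with oxamate, the differences were 0.40 for Iars, 0.41 for Mars1, 0.39 for Lars, 0.43 for Tars and 0.22 for Yars, and the intervals of Tars and Yars included 0. The treatments differ in cell stage, agent and culture time at once, which cannot be told apart.

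**Figure D2:**
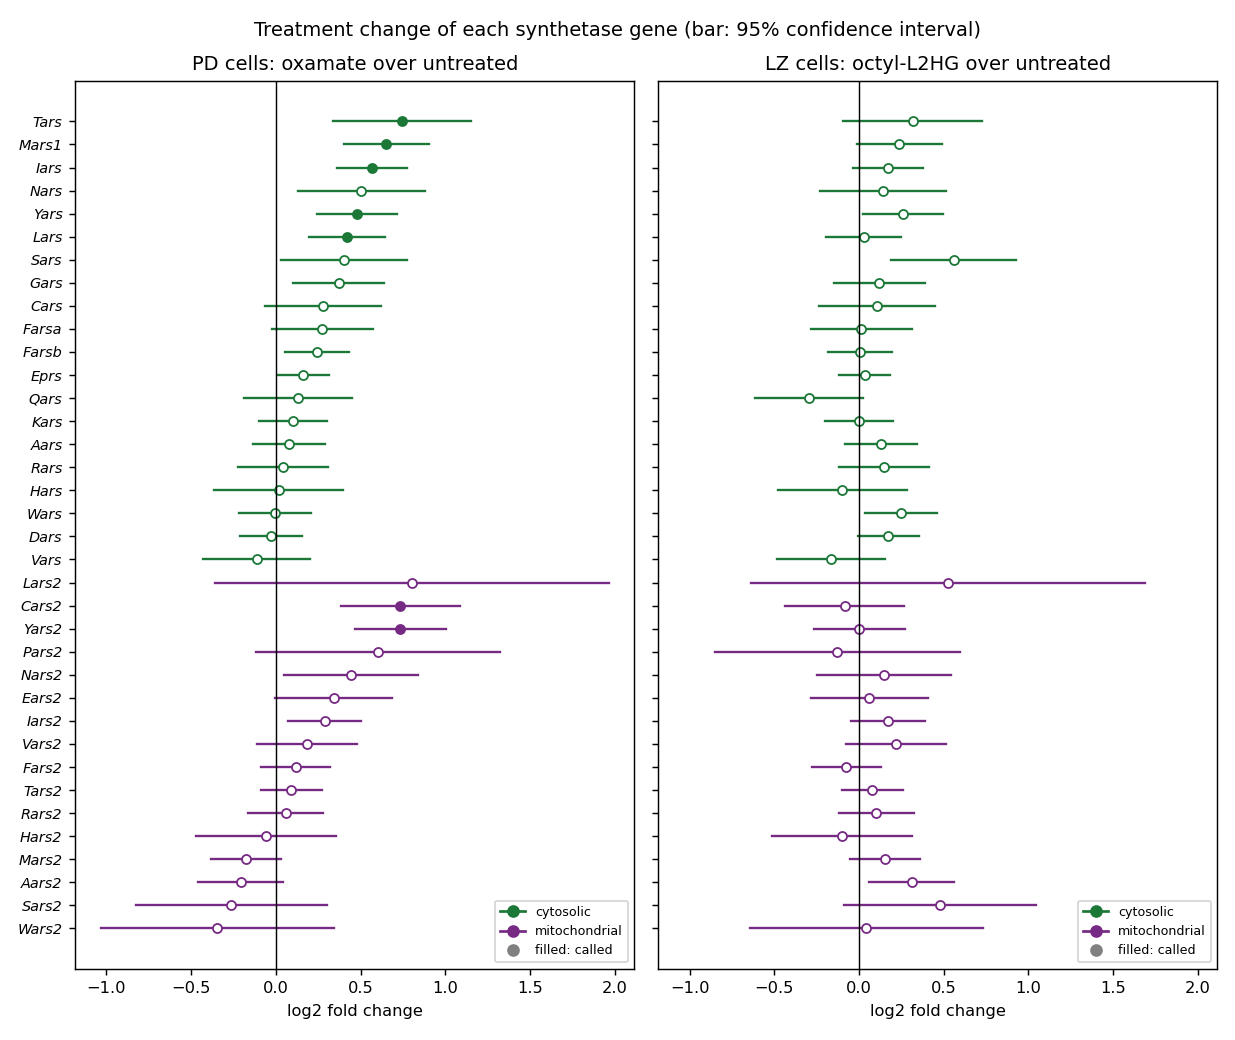
Log2 fold change (x axis) with its 95% confidence interval for each of the 36 genes (y axis, ordered by the oxamate value within class), in PD cells with oxamate on the left and LZ cells with octyl-L2HG on the right. Filled points passed the threshold, and they are found for 7 genes with oxamate and for 0 with octyl-L2HG; the Lars2 intervals are the widest in both panels.

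In PD untreated against LZ untreated cells 12 of 20 cytosolic synthetases were higher and 5 lower, while 2 of 16 mitochondrial ones were higher and 10 lower. Among all 16881 genes tested 50.8% were called higher and 38.9% lower, so the cytosolic shares of 60.0% and 25.0% are nearer to the background than the mitochondrial shares of 12.5% and 62.5%. The median log2 fold change was 0.77 for the cytosolic and -0.69 for the mitochondrial set, beside 0.49 for all genes. With total-count scaling the median of all genes was -0.076, and 10 cytosolic genes were higher and 8 lower, 2 mitochondrial higher and 12 lower. The 50.8% and 38.9% above belong to the main scaling and are no background for these counts, which are given without one.

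The largest cytosolic rises were those of Gars, Sars, Aars, Vars and Lars. Gars, for glycine (chr6:55038007-55079500), had 2628, 2694 and 2198 in PD untreated libraries, against 689, 901 and 678 in LZ untreated libraries (log2 fold change 1.73, SE 0.12, adjusted p = 4.94e-09). Sars had 672, 675 and 559.5 in PD and 160.0, 265 and 163 in LZ cells, 3.31-fold higher (log2 fold change 1.73, SE 0.17, adjusted p = 2.21e-07). Aars (chr8:111033144-111057664) had 10671, 11764 and 10843 in PD and 3734, 3636 and 3133 in LZ cells (log2 fold change 1.67, SE 0.099, adjusted p = 5.92e-10). In none of these did the stages overlap, and the Sars level of LZ library B was above the other LZ libraries. Vars (chr17:35000987-35016322) had 3590, 3043 and 2796 in PD and 1339, 1037 and 879 in LZ cells (log2 fold change 1.55, SE 0.15, adjusted p = 1.34e-07). Lars had 1944, 1709 and 1648 in PD and 652, 668 and 764 in LZ cells (log2 fold change 1.35, SE 0.10, adjusted p = 1.14e-08). The stages were apart for both, and the other rises ran from 0.60 (Hars, histidine) to 1.33 (Iars), with Cars, Mars1, Kars, Wars and Qars between. Qars and Hars lost the call with total-count scaling (adjusted p = 0.0541 and 0.495), and the span of Hars shares 198 bases with Hars2 on the other strand.

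The other 5 called cytosolic enzymes were lower in PD cells. Nars, for asparagine, fell to 560.3, 585 and 517 in PD libraries, against 3124, 3264 and 3006 in LZ libraries (log2 fold change -2.50, SE 0.17, adjusted p = 4.14e-09), a 5.65-fold difference. Tars fell to 275, 228 and 204 in PD, against 770.3, 1015 and 802 in LZ cells (log2 fold change -1.87, SE 0.19, adjusted p = 2.73e-07). Rars, the arginine enzyme of the complex (chr11:35808381-35834506), fell to 242, 210.4 and 279 in PD, against 516, 571 and 461 in LZ cells (log2 fold change -1.08, SE 0.12, adjusted p = 9.61e-07). Each of the 3 was lower in every PD library than in any LZ library. Yars had 872, 845 and 859.6 in PD and 1384, 1550 and 1247 in LZ cells (log2 fold change -0.69, SE 0.11, adjusted p = 3.07e-05). Eprs, which charges both glutamate and proline in the cytosol (chr1:185363044-185428360), had 3080, 3263 and 3159 in PD and 4527, 4268 and 4178 in LZ cells (log2 fold change -0.45, SE 0.070, adjusted p = 2.53e-05), a smaller gap with no overlap. Dars, Farsa and Farsb were not called, at -0.17, 0.12 and 0.11. With total-count scaling all 3 were called lower, so that Farsa and Farsb changed sign (-0.36 and -0.37), and Dars, for aspartate, stood at -0.65.

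Aars2 and Fars2 were the mitochondrial genes that rose. Aars2 had 918, 939.9 and 903 in PD untreated libraries, against 60.9, 71.6 and 76.8 in LZ untreated libraries, 13.1-fold higher (log2 fold change 3.71, SE 0.12, adjusted p = 7.53e-13). Fars2, the mitochondrial phenylalanine enzyme (chr13:36117412-36726280), had 1709, 1607 and 1465 in PD and 263, 251 and 253 in LZ cells, 6.19-fold higher (log2 fold change 2.63, SE 0.095, adjusted p = 2.99e-12). PD levels of both were several times the LZ level in every library, and Aars2 had the largest change of the 36 genes. The long annotated span of Fars2 overlaps other genes on both strands, among them Lyrm4 and Nrn1 on the other strand. Their part in its counts was not tested.

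Ears2, the mitochondrial glutamate enzyme (chr7:122037213-122067263), fell most, to 60.6, 42.3 and 60.2 in PD libraries, against 459, 451 and 404 in LZ libraries (log2 fold change -3.00, SE 0.16, adjusted p = 1.79e-10). Yars2 fell to 111, 107 and 86.5 in PD, against 803, 678 and 712 in LZ cells (log2 fold change -2.84, SE 0.12, adjusted p = 2.21e-11). Nars2, for mitochondrial asparagine (chr7:96951505-97064758), fell to 40.8, 28.6 and 30.5 in PD, against 152, 139.6 and 133 in LZ cells (log2 fold change -2.07, SE 0.18, adjusted p = 5.53e-08). Every PD library was below every LZ library for these genes. Wars2, for tryptophan (chr3:99141068-99239186), fell to 9.32, 11.4 and 17.0 in PD, against 42.6, 58.7 and 66.5 in LZ cells (log2 fold change -2.08, SE 0.32, adjusted p = 2.27e-05), the least counted of the fallen genes. Cars2 fell to 52.4, 49.2 and 43.2 in PD, against 137, 142 and 147 in LZ cells (log2 fold change -1.54, SE 0.16, adjusted p = 4.29e-07). The other falls, of Iars2, Tars2, Hars2, Mars2 and Vars2, ran from -1.25 to -0.39, and that of Vars2 lost its call without PD library C (-0.27, adjusted p = 0.0846). Lars2, Pars2, Rars2 and Sars2 were not called, and with total-count scaling Rars2, for mitochondrial arginine, was called lower (-0.35, adjusted p = 0.00588).

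**Figure D3:**
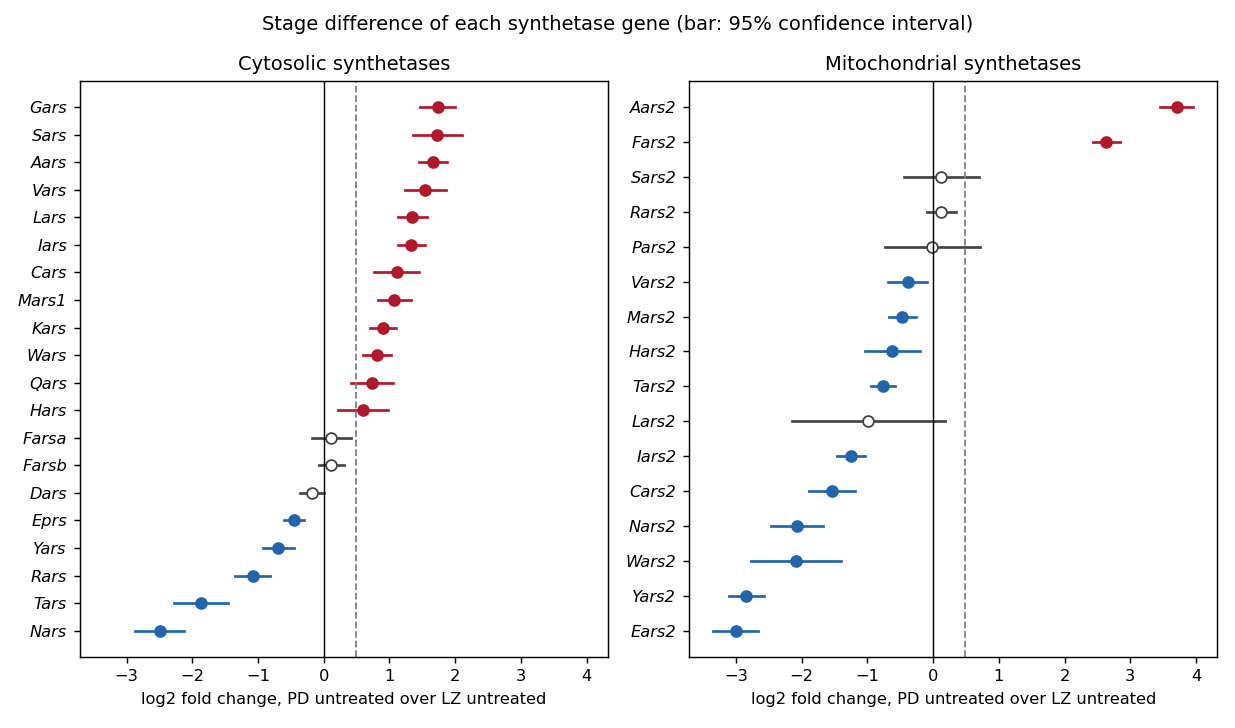
Log2 fold change of PD untreated over LZ untreated cells (x axis) with its 95% confidence interval for the 20 cytosolic (left) and 16 mitochondrial genes (right). Filled points passed the threshold, red higher and blue lower in PD cells, open points did not, and the dashed line is the median of all genes (0.49); 12 cytosolic points are red and 10 mitochondrial points are blue.

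Pairs of enzymes for the same amino acid were set side by side. Of 17 cytosolic and mitochondrial pairs, in which Eprs and Fars2 each stand in more than 1, 6 had a cytosolic gene that rose and a mitochondrial gene that fell with stage (Cars, Hars, Iars, Mars1, Vars and Wars with their partners), and 0 had the reverse. In 4 pairs both fell, those of asparagine, threonine, tyrosine and glutamate. In 1 pair, that of alanine, both rose. By class 60.0% of the cytosolic genes were higher and 25.0% lower, and 12.5% of the mitochondrial genes higher and 62.5% lower. Among all genes tested 50.8% were higher and 38.9% lower. Whether the pairs go beyond these shares was not tested. Hars lost its call with total-count scaling, and Vars2 without PD library C. For tryptophan the cytosolic change was 0.80 and the mitochondrial -2.08, and for cysteine 1.11 and -1.54. In 7 pairs the mitochondrial change was the more positive, most of all for phenylalanine, where Farsa stood at 0.12 and Fars2 at 2.63.

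Summed over each set, cytosolic synthetases took 0.305, 0.292 and 0.247% of all counts in PD oxamate libraries A, B and C and 0.253, 0.255 and 0.234% in PD untreated libraries. The share was 0.233, 0.235 and 0.222% in LZ octyl-L2HG and 0.215, 0.244 and 0.217% in LZ untreated libraries. Oxamate library C lay within the untreated PD range, and the untreated stages overlapped. The 15 mitochondrial genes without Lars2 took 0.0274, 0.0266 and 0.0252% in PD oxamate and 0.0275, 0.0264 and 0.0252% in PD untreated libraries. They took 0.0382, 0.0385 and 0.0378% in LZ octyl-L2HG and 0.0376, 0.0386 and 0.0376% in LZ untreated libraries, above every PD library. Cytosolic over mitochondrial counts without Lars2 were 11.2, 10.9 and 9.80 in PD oxamate, 9.20, 9.65 and 9.32 in PD untreated, 6.09, 6.09 and 5.87 in LZ octyl-L2HG and 5.73, 6.31 and 5.77 in LZ untreated libraries. The stages were apart in this ratio, and the oxamate libraries lay above the untreated PD ones; no test was made on the sums.

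**Figure D4:**
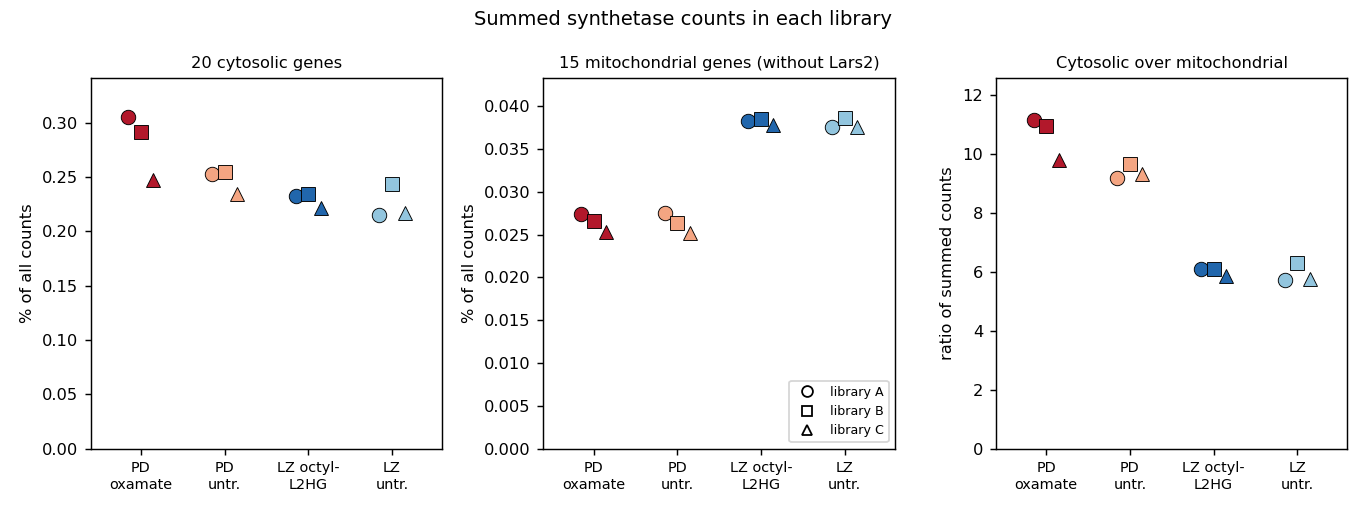
Summed counts of the 20 cytosolic genes (left) and of 15 mitochondrial genes without Lars2 (middle), as a percentage of all counts, and their ratio (right), per library (circle A, square B, triangle C) in the 4 groups. The ratio is 9.2 or more in each PD library and 6.31 or less in each LZ library.

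Somatic transcripts also differed between the stages. Sertoli markers summed to 0.000252 to 0.000355% of counts in PD untreated and 0.0347 to 0.0389% in LZ untreated libraries, most of the LZ share from Ctsl, while Rhox5, Wt1 and Gata4 were at 0 in PD untreated libraries and Sox9 and Wt1 averaged 1.55 and 3.95 normalized counts in LZ cells. Peritubular and stromal markers summed to 0.000568 to 0.00071% in PD untreated and 0.0215 to 0.0253% in LZ untreated libraries, most of the LZ share from Fn1. Spermatogonial markers summed to 0.00127 to 0.00154% in PD untreated and 0.024 to 0.0269% in LZ untreated libraries. Most of that LZ share came from Sohlh2, Foxo1 and Etv5. Gfra1 averaged 84.11 normalized counts in PD untreated and 1.072 in LZ untreated cells, and Zbtb16 12.55 and 2.324, against the direction of the spermatogonial sum. Round spermatid markers were higher in sum in PD cells, at 0.111 to 0.136% in PD untreated and 0.00106 to 0.00168% in LZ untreated libraries. The sum of macrophage and leukocyte markers was 0.00825 to 0.0101% in PD untreated and 0.00294 to 0.0039% in LZ untreated libraries, but Aif1 made up most of the PD sum (mean 1482 normalized counts in PD untreated and 0.382 in LZ untreated cells), while Cd68 averaged 5.15 in PD untreated and 135 in LZ untreated cells. The part of these cells in the synthetase differences was not tested. With octyl-L2HG Sertoli markers stood at 0.032 to 0.0349%.

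Compared per kilobase of annotated exon, the order of the genes was partly shared between stages. In PD untreated cells Mars1 (1196 ± 133) and Aars (1195 ± 63.3) led, and differed by less than their spread. Gars (804 ± 86.3) and Iars (803 ± 37.1) came next, also within their spread, and Dars (586 ± 18.6) followed. In LZ untreated cells Lars2 (858 ± 174), Nars (719 ± 29.7) and Dars (663 ± 63.1) led, before Mars1 (568 ± 52) and Farsb (484 ± 32). Nars had rank 21 of 36 in PD and rank 2 in LZ cells, and Tars rank 26 in PD and rank 19 in LZ cells, with 39.9 ± 6.1 in PD and 146 ± 22.6 in LZ cells. Wars2 (2.11 ± 0.663 in PD) and Pars2 (4.33 ± 1.06 in LZ) were lowest. These are normalized counts per kilobase (mean ± SD, n = 3), over all annotated exons of a gene, so genes with long rarely used exons read low.

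Lars2, the mitochondrial leucine enzyme (chr9:123366927-123462666), held 46.5 to 82.9% of mitochondrial synthetase counts in a library and is kept apart for that reason. It had 4768, 6680 and 17910 normalized counts in PD oxamate libraries A, B and C, against 5903, 4600 and 3945 in PD untreated libraries. In LZ cells it had 10694, 9179 and 25157 with octyl-L2HG and 7929, 11657 and 8946 without. The treated C library of each stage stood far above the others, and neither treatment change was called (oxamate, log2 fold change 0.80, SE 0.51, adjusted p = 0.444, and octyl-L2HG, log2 fold change 0.53, SE 0.51, adjusted p = 0.739). Gm42418, a noncoding transcript of the ribosomal RNA repeat, was high in the same libraries, at 37220, 42560 and 133000 with oxamate and 43110, 32180 and 39620 in PD untreated cells, and at 101900, 88810 and 260300 with octyl-L2HG and 101900, 109000 and 97720 in LZ untreated cells. AY036118, a further gene at or beside that repeat, had 212.6, 196.3 and 440.8 with oxamate and 763.1, 889.7 and 1586 with octyl-L2HG. Gm26917, another such gene, was not raised in the treated C libraries. It had 1591, 1610 and 1672 with oxamate and 22230, 23600 and 23190 with octyl-L2HG. The part of Gm42418 in the Lars2 counts was not tested. In PD against LZ cells Lars2 had log2 fold change -0.98, SE 0.51, adjusted p = 0.0962, not called. It was called lower with total-count scaling (-1.46, adjusted p = 0.0217), with only the libraries compared (-1.16, adjusted p = 0.000446) and without the C libraries (-0.88, adjusted p = 0.00529).

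**Figure D5:**
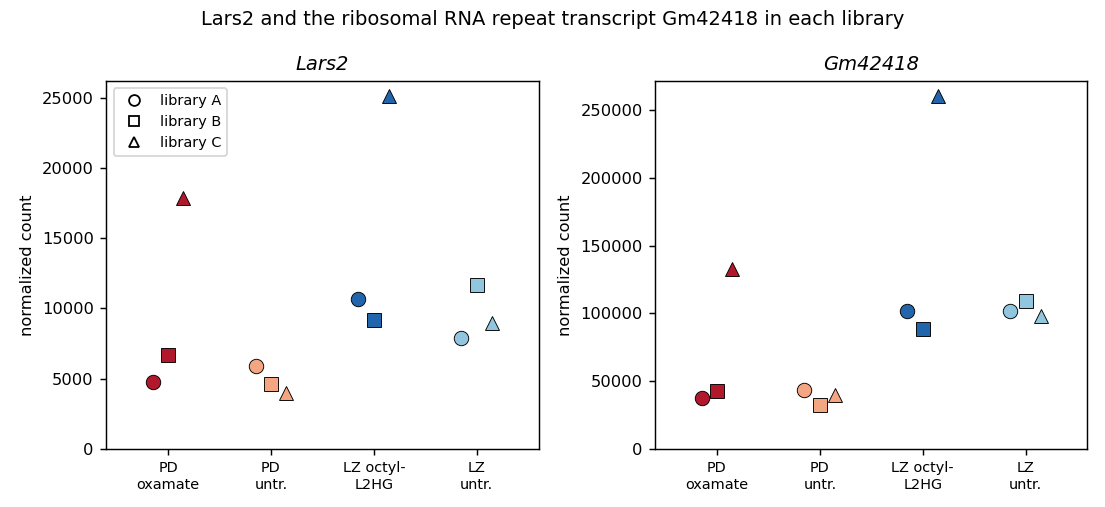
Normalized counts of Lars2 (left) and Gm42418 (right) per library (circle A, square B, triangle C) in the 4 groups, both axes from 0. Library C of each treated group is the highest of its stage in both panels, at 17910 and 25160 for Lars2.

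Other genes of tRNA charging were followed as lists. Of the 3 scaffold genes of the multisynthetase complex 0 were called with either treatment, while with stage Eef1e1 fell (log2 fold change -3.06, SE 0.15, adjusted p = 5.39e-11), Aimp1 rose (log2 fold change 0.78, SE 0.10, adjusted p = 5.96e-06) and Aimp2 stood at -0.11. Among 8 further charging and transamidation enzymes, Mtfmt, which formylates mitochondrial initiator methionyl-tRNA, was called higher with oxamate, at 218 ± 21.6 against 151 ± 20.9 in untreated PD cells (log2 fold change 0.53, SE 0.14, adjusted p = 0.0314), 1 of 7 tested. Of all genes tested 6.13% were called higher with oxamate. With stage 2 of the 8 were higher and 5 lower, where 50.8% of all genes tested were called higher and 38.9% lower. Tarsl2, another threonine enzyme of the cytosol, had 7.20 ± 3.92 in PD and 445 ± 66.4 in LZ cells (log2 fold change -5.86, SE 0.38, adjusted p = 1.45e-09), and Gatb, a subunit of the mitochondrial transamidase, rose (log2 fold change 1.52, SE 0.14, adjusted p = 6.53e-08).

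Steps before and after charging showed 0 calls with either treatment, over 4 to 6 proofreading genes, 5 cytosolic and 4 mitochondrial elongation genes and 11 to 14 tRNA maturation genes tested. With stage (log2 fold changes in brackets unless marked), 3 of 5 cytosolic elongation genes rose, Eef1d (2.72), Eef1g (2.83-fold) and Eef2 (1.40), and 2 fell. Of 4 mitochondrial elongation genes 3 rose, Gfm1 (1.32), Tufm (1.11) and Tsfm (1.68), and 1 fell. Of 14 tRNA maturation genes 6 rose and 8 fell, among them Nsun2, a tRNA cytosine methyltransferase (1.79), Tsen34, of the tRNA splicing endonuclease (-4.81), and Elac1 (-4.48). Of 6 proofreading genes 1 rose, Dtd1 (1.06), and 3 fell, among them Prorsd1 (-3.30). Among all genes tested 50.8% were called higher and 38.9% lower with stage. The shares were 6.13% and 1.65% with oxamate, and 0.276% and 0.0307% with octyl-L2HG. Whether these lists depart from those shares was not tested.

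Amino acid response genes other than synthetases were a further list. Of all genes tested 6.13% were called higher and 1.65% lower with oxamate, and 50.8% and 38.9% with stage. For the difference of the treatment changes 0.693% were called higher and 0.515% lower. With oxamate 5 of 20 tested were higher and 0 lower: Slc38a2, a neutral amino acid transporter (log2 fold change 1.33, SE 0.17, adjusted p = 0.00091), Psat1, of serine synthesis (log2 fold change 1.46, SE 0.22, adjusted p = 0.00229), Sesn2 (log2 fold change 0.71, SE 0.15, adjusted p = 0.0135), Slc3a2 and Shmt2. Atf4 itself had 906 ± 209 with oxamate and 711 ± 16.4 without (log2 fold change 0.32, SE 0.14, adjusted p = 0.205), and Asns, asparagine synthetase, had a log2 fold change of -0.23. With octyl-L2HG 0 of 22 were called, and the change with oxamate differed from that with octyl-L2HG for 1 of 20, Psat1 (log2 fold change 1.45, SE 0.31, adjusted p = 0.0467). With stage 1 of 22 rose, Gcn1l1 (log2 fold change 1.49), and 17 fell, among them Eif2ak4 (-4.59), Atf4 (-2.96) and Slc38a2 (-3.37). The 13 synthetases often listed as Atf4 targets had 9 higher and 4 lower in the same comparison, with a median of 1.11 beside -1.80 for the response genes.

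In the authors' deposited table, adjusted p-values under 0.05 were found for 4 cytosolic and 2 mitochondrial synthetases higher with oxamate, and for 0 lower. In the authors' deposited table Lars had an adjusted p of 0.0999 with oxamate, and the other 6 genes called here passed. With octyl-L2HG 0 synthetases passed in the authors' deposited table, and for PD against LZ cells 12 cytosolic were higher and 5 lower, 2 mitochondrial higher and 10 lower. The oxamate and the stage comparison share the untreated PD libraries. Of the 7 genes called higher with oxamate, 4 (Yars, Tars, Yars2 and Cars2) were lower and 3 (Iars, Mars1 and Lars) higher in untreated PD than in LZ cells.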

How the data were processed

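RNA of 12 libraries, 3 in each of 4 groups, was captured by poly-A and prepared with a stranded kit, per the labels' protocols. Per the submitters' processing notes, reads were handled with TopHat2 2.1.1, HTSeq 0.6.0, cutadapt 1.18, DESeq2 1.22.2 and bcl2fastq 2.18.0.12 on GRCm38. The sources used here do not give annotation release, strand setting or the authors' model, so overlapping genes are uncertain. The deposited table holds the authors' read count per gene and library, other values that the authors computed, and their log2 fold changes and adjusted p-values. Of 55471 genes, 6255 carry question marks in place of counts and were left out. Because of these question marks limma was chosen and no count test, although the remaining genes have counts in every library. 12 further columns of per-library values were not used.

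Counts were divided by effective library size (trimmed mean of M values), brought to the mean size and analysed as log2(normalized count + 1) in R 4.3.3 with limma 3.58.1 (trend, robust), with 4 group means over 12 libraries and no block. Genes needed a mean of 10 over all libraries and over those compared, which left 17011 in the fit. P-values are two-sided with Benjamini-Hochberg adjustment over all genes tested, and a call is an adjusted p under 0.05. The code was tested on simulated data. Mars1 was matched by gene ID and the other 35 genes by name. Per-library values are given for members called with a treatment and for the 5 largest rises and falls per class with stage; some further members are shown for contrast, chosen after their values were seen. Members and lists were chosen with earlier results of these data known. Exon lengths come from GENCODE M21. Some list genes and sequences are not reported here. The shared codes pair the libraries within a stage: deviations from the group mean correlated at 0.3 to 0.488 for same-coded PD and 0.135 to 0.336 for same-coded LZ libraries over 11254 genes, and at 0.0651 to 0.225 for same-coded PD untreated and LZ untreated libraries, which are not taken as paired because not every pair was over 0.1. Alternatives were total-count and median-of-ratios scaling, other filters and pseudocounts, voom weights, a block for the shared code, only the libraries compared and leaving out libraries. The block spans all 12 libraries and so also ties the stages by code.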

Additional observations from a re-analysis of the deposited data

How the results depend on the processing

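Directions of the oxamate calls held in the settings tried; their number did not. With oxamate 3 cytosolic genes were called under total-count and 3 under median-of-ratios scaling (Lars and Tars lost). Called genes in all numbered 1186, and 1994 with only the libraries compared. Without the C libraries, an alternative chosen after seeing the data, 1 cytosolic, 0 mitochondrial and 39 genes in all were called. Leaving out 1 library gave 2 to 7 cytosolic and 1 to 2 mitochondrial calls, medians of 0.1475 to 0.3416 and 0.09765 to 0.2184, and 561 to 760 genes in all.

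For octyl-L2HG the mitochondrial median was 0.01206 with total-count scaling and 0.01755 with only the libraries compared, and 22 (voom weights), 17 (only the libraries compared), 2 (without the C libraries) and, leaving out 1 library, 19 to 72 genes in all were called, against 40; cytosolic calls were 0 to 1. For stage, total-count scaling gave 8 cytosolic genes lower, medians of 0.2894 and -1.169, and Farsa -0.3634, Farsb -0.3654 and Rars2 -0.3534, of opposite sign; that scaling moves the median of all genes to -0.07572, against 0.4856. With only the libraries compared the medians were 0.5919 and -0.8669, and leaving out 1 library the mitochondrial median was -0.7725 to -0.593.

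For the difference of the treatment changes, 1 mitochondrial gene (Yars2) was called with total-count scaling, 1 with median-of-ratios scaling and 1 with the replicate block. Genes in all were 136, and 388 (total-count), 299 (median-of-ratios), 207 (pseudocount 5), 344 (replicate block) and 0 (without the C libraries). Leaving out 1 library gave 0 to 1 cytosolic calls, medians of 0.1092 to 0.3068 and -0.0007693 to 0.1389, and 35 to 228 genes in all. The replicate block gave 8 cytosolic calls with oxamate, against 5. Where not explained by fewer libraries, the cause of these moves was not tested. Of 570 single-gene oxamate values 26 lost and 6 gained a call.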
